A study of Tupaia belangeri with 6 samples.

Results

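The genes that present antigens to T cells were followed through single nuclei of the tree shrew hippocampus. The set was named by symbol: HLA-B and 1A01li1 (class I heavy chain features), B2M (β2-microglobulin, the light chain of every class I molecule), the immunoproteasome subunits PSMB8 and PSMB9, the peptide transporter subunits TAP1 and TAP2, and CD74 (the invariant chain of class II molecules). A feature with the symbol was found for 7 of the 8 genes among 83605 features, and 6 of them had unique molecular identifiers (UMIs), each of which counts 1 captured RNA. TAP2 was absent from the feature list. TAP1 was listed once and held 0 UMIs in every library, which allows a count of up to 3 per library (counting error only), so that no level can be given for either transporter subunit. Listed features without a UMI were common, as 60140 of the 83605 features had one, and only 4 of 9 further proteasome genes. Why TAP1 held none was not tested. Their identifiers in the feature list are TSDBGID.1485 for HLA-B, TSDBGID.20726 for 1A01li1, TSDBGID.22318 for B2M, TSDBGID.20662 for PSMB8, TSDBGID.21227 for PSMB9, TSDBGID.1361 for TAP1 and TSDBGID.12544 for CD74. In the RefSeq gene table of the assembly TupChi_1.0, PSMB9, TAP1, PSMB8 and TAP2 stand next to each other. The matrices give no coordinates.

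Nuclei came from the hippocampus of 3 control tree shrews (TSs) and 3 TSs with natural aging and Alzheimer's-like pathology (ALP), 1 library each. The samples are titled Normal and AD, and no transgene or treatment is named for either group. By the methods, both groups were picked from the same population of aging TSs by their time in a maze, and controls were matched in age. The labels give neither age nor sex per library. With 1 library per animal, the p-values below measure the spread between animals together with that between library preparations. Levels are given as UMIs per 1000000 UMIs of the same nuclei (CPM). After the filters of the study, 14387 control and 13846 ALP nuclei were kept, with 1614 to 7022 nuclei and 4159545 to 15412799 UMIs per library. Control 2 stood apart with the fewest kept nuclei, and 46.4% of its barcodes exceeded the limit on genes, against 16.0% to 27.7% in the other libraries. Pairs of libraries shared at most 0.465% of the barcodes of the smaller one.

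Class I molecules display peptides from inside the cell to CD8 T cells. The peptides are cut by the proteasome, where PSMB8 and PSMB9 replace constitutive subunits under interferon, and are carried into the endoplasmic reticulum by TAP1 and TAP2. There the heavy chain pairs with B2M and is loaded with the help of chaperones such as CALR and PDIA3. Class II molecules display peptides from the endosome to CD4 T cells, and CD74 escorts their chains until it is cut away. In healthy brain, neurons are known for low class I levels, endothelium for high ones, and microglia are the main resident cells with class II.

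Nuclei were clustered without the MHC family features and named from marker genes. The classes were Oligo-like (oligodendrocytes), OPC-like (their progenitors), Astro-like (astrocytes), Micro-like (microglia), Endo-like (endothelium), Gran-like (dentate granule neurons), Pyra-like (pyramidal neurons), InN-like (inhibitory neurons), and the small Ependymal-like and Mural-like classes. The Endo-like cluster also met the naming rule of the Mural-like class on 5 markers. It held 1376 to 2039 CPM of the 7 mural markers, so Endo-like against Mural-like levels are not a clean contrast of cell types. CD74, a marker of microglia in the study, was not used for naming. Low-depth clusters with 3033 nuclei stayed unnamed by a threshold set after seeing the data.

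The Endo-like nuclei carried the highest mean level of B2M, 1A01li1, HLA-B, PSMB8 and PSMB9, and the Micro-like nuclei that of CD74. Only 1.75% of the kept nuclei were Endo-like, yet they held 41.7% of all B2M UMIs, 24.9% of those of 1A01li1, 21.6% of HLA-B, 36.0% of PSMB8 and 58.3% of PSMB9. Micro-like nuclei were 4.97% of the kept nuclei and held 38.6% of CD74 UMIs. Classes were formed from the same nuclei, so these levels are given as a description with no test. CPM of different genes are not set against each other, as no transcript lengths were used.

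**Figure D1:**
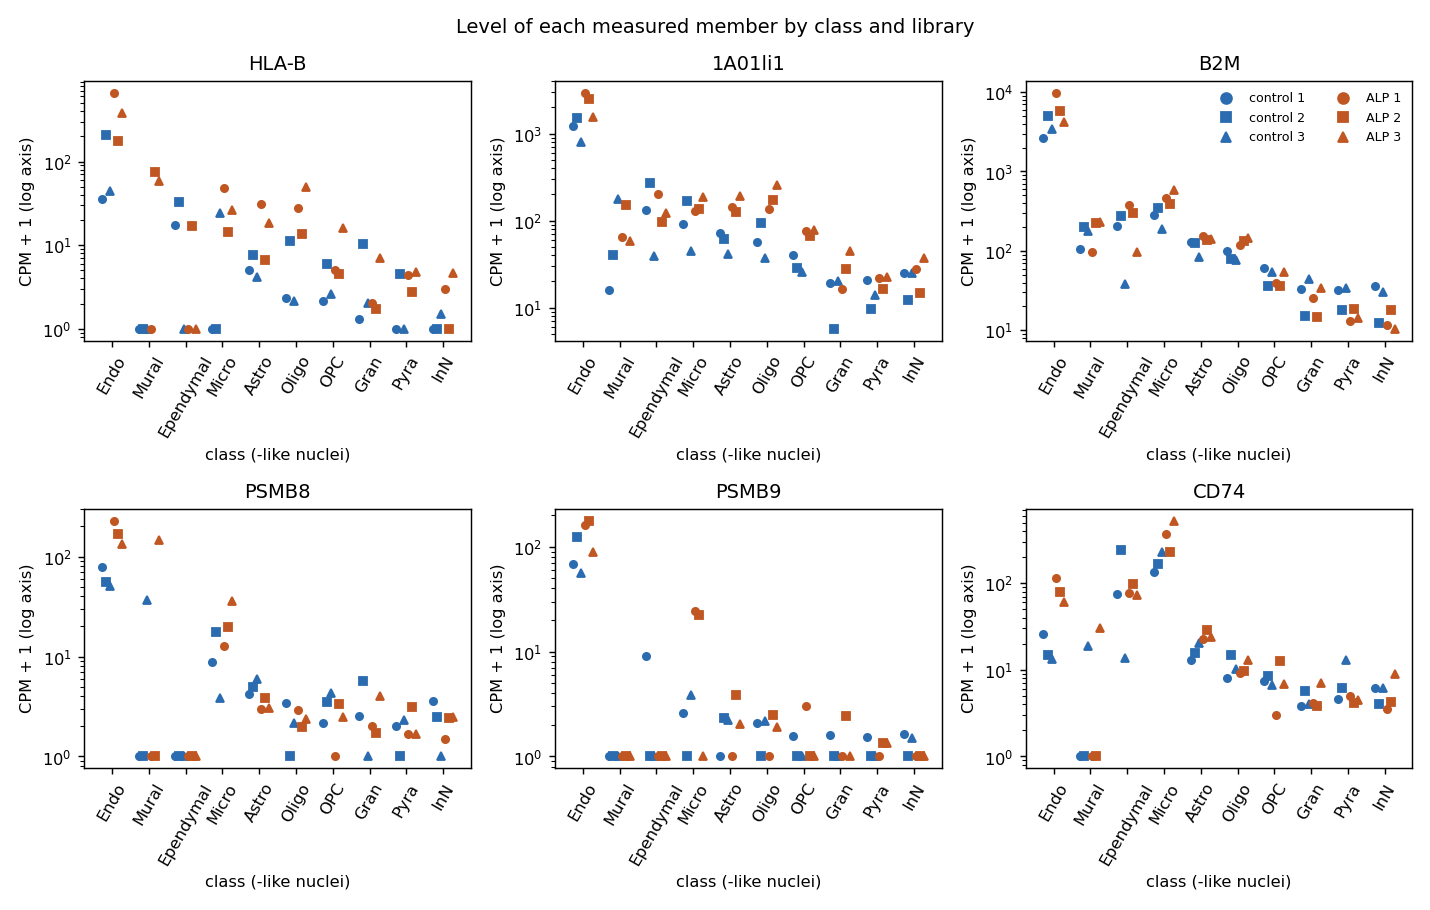
CPM + 1 on a log axis (y) for each class of nuclei (x) and each of the 6 measured genes (panels), with 1 point per library, control in blue and ALP in orange. Endo-like nuclei lead in 5 panels and Micro-like nuclei in that of CD74, and points at 1 are libraries with 0 UMIs.

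B2M was measured in Endo-like nuclei at 2633 CPM in control 1, 5006 in control 2 and 3387 in control 3, and at 9771 in ALP 1, 5796 in ALP 2 and 4172 in ALP 3. Every library of the Endo-like class was above every library of any other class. Micro-like nuclei came next with a mean of 377 ± 140 CPM (SD, n = 6 libraries), above Ependymal-like nuclei (215 ± 129) in all 6 libraries. Ependymal-like, Mural-like (172 ± 58.6), Astro-like (127 ± 23.5) and Oligo-like nuclei (108 ± 27.9) differed from their neighbours in this order by less than the larger SD. OPC-like nuclei followed at 45.8 ± 11.1 CPM, and the neuronal classes lay lowest, with 18.9 ± 10.98 in InN-like nuclei, 20.7 ± 9.06 in Pyra-like nuclei and 26.8 ± 11.6 in Gran-like nuclei. The order among these neuronal classes is within their spread. In shares of nuclei, 77.5% of Endo-like nuclei had a B2M UMI against 7.22% of InN-like nuclei (means over 6 libraries, median depths of 1204 and 4275 UMIs). Nuclei with at least 1000 UMIs were also thinned to 1000, and the others were left out. The shares were then 77.7% and 2.00%. This step left out 117 control and 67 ALP Endo-like nuclei, so it covers the deeper nuclei only.

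1A01li1 had 1194 UMIs in Endo-like nuclei, with 1222, 1531 and 808 CPM in control 1, 2 and 3 and 2945, 2484 and 1568 in ALP 1, 2 and 3. The next classes, Ependymal-like, Micro-like, Oligo-like, Astro-like and Mural-like, had means between 84.0 and 143 CPM and did not differ from their neighbours beyond the spread. OPC-like nuclei had 51.2 ± 23.7 CPM, and the neuronal classes had means between 16.5 and 22.6. These are levels of this feature alone, and sums over all features named for class I are given further below.

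HLA-B was sparse, with 496 UMIs in 441 kept nuclei and at most 6 in any nucleus. In Endo-like nuclei it reached 34.8, 207 and 43.2 CPM in control 1, 2 and 3, and 662, 177 and 385 in ALP 1, 2 and 3. The mean of 251 ± 238 CPM did not exceed that of the next class by more than its SD, although Endo-like nuclei were the higher in all 6 libraries. Every other class had a mean of at most 22.1 CPM, and no neighbours among them differed beyond their spread.

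The immunoproteasome subunits had a narrow reach. PSMB8 had 214 UMIs in the kept nuclei and a mean of 118 ± 70.7 CPM in Endo-like nuclei, and PSMB9 had 127 UMIs and 112 ± 49.7 CPM there. Micro-like nuclei had 15.5 ± 11.2 CPM of PSMB8 and 8.21 ± 11.1 of PSMB9. In the Astro-like, Oligo-like, OPC-like and neuronal classes both genes had means of at most 3.19 CPM, from 2 to 22 UMIs per class, so that their order cannot be read at this depth.

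CD74 showed another pattern, with 132, 167 and 228 CPM in the Micro-like nuclei of control 1, 2 and 3, and 367, 231 and 527 in those of ALP 1, 2 and 3. Ependymal-like nuclei had 94.96 ± 76.5 CPM from 37 UMIs, Endo-like nuclei 50.3 ± 40.8 from 29 UMIs, and Astro-like nuclei 19.8 ± 5.72. The other classes had means between 3.76 and 9.83 CPM. A CD74 UMI was found in 23.1% of Micro-like nuclei and 1.93% of InN-like nuclei (means over 6 libraries, median depths of 1030.5 and 4275 UMIs), and in 17.6% and 0.581% after thinning.

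Over the 48 sums of 8 classes and 6 libraries, which share libraries and depth, log2(CPM + 10) of the class I members followed each other, with Pearson's r from 0.844 to 0.948 among HLA-B, 1A01li1, B2M, PSMB8 and PSMB9. PSMB8 and PSMB9 had means of at most 3.19 CPM outside the Endo-like and Micro-like classes, below the 10 added. Their r thus leans on the few sums above that level. With CD74 the same genes had r from 0.395 to 0.620. Among 10591 genes outside the set, those most like CD74 were C1QA (r = 0.946, a complement subunit made by microglia), ACSL5 (0.935), the class II feature HLA-DPA1 (0.932), TMEM273 (0.928) and IL18 (0.924). The genes most like B2M were the ribosomal features RPLP1li2 (0.962), RPS10li3 (0.961) and RPS23li2 (0.955), with L1RE1li51 (0.962) and MT-ND1li1 (0.957). For HLA-B they were JTB (0.911), RPS18li11 (0.901), TXNDC17 (0.901), RPS15li1 (0.899) and RPS23li2 (0.893). For B2M and for HLA-B these genes had a higher r than any other member, of which 1A01li1 was closest to both (0.948 and 0.878). The r among the class I members is therefore not particular to them.

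In Oligo-like nuclei HLA-B, 1A01li1 and B2M were each higher in all ALP libraries than in all controls, while PSMB8 and PSMB9 overlapped. HLA-B was chosen by its CPM difference between the groups in these nuclei and 1A01li1 belongs to the same family, so both are described between the groups without a test. HLA-B had 1.35 CPM in control 1 (5 UMIs), 10.3 in control 2 (3 UMIs) and 1.16 in control 3 (3 UMIs), against 27.2 in ALP 1 (43 UMIs), 12.7 in ALP 2 (26 UMIs) and 48.2 in ALP 3 (105 UMIs). The ALP libraries lay above the controls, but control 2 and ALP 2 nearly met, and the 95% Poisson interval of control 2, 2.13 to 30.2 CPM, holds the values of ALP 1 and ALP 2. That interval covers counting error only. The group means were 4.28 ± 5.24 CPM in control and 29.4 ± 17.9 in ALP (SD, n = 3), a ratio of 6.86. Without ALP 3 the difference between the means fell from 25.1 to 15.7 CPM. The UMIs were spread thinly, over 11 of 4092 control and 167 of 4540 ALP nuclei, with at most 2 in 1 nucleus.

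**Figure D2:**
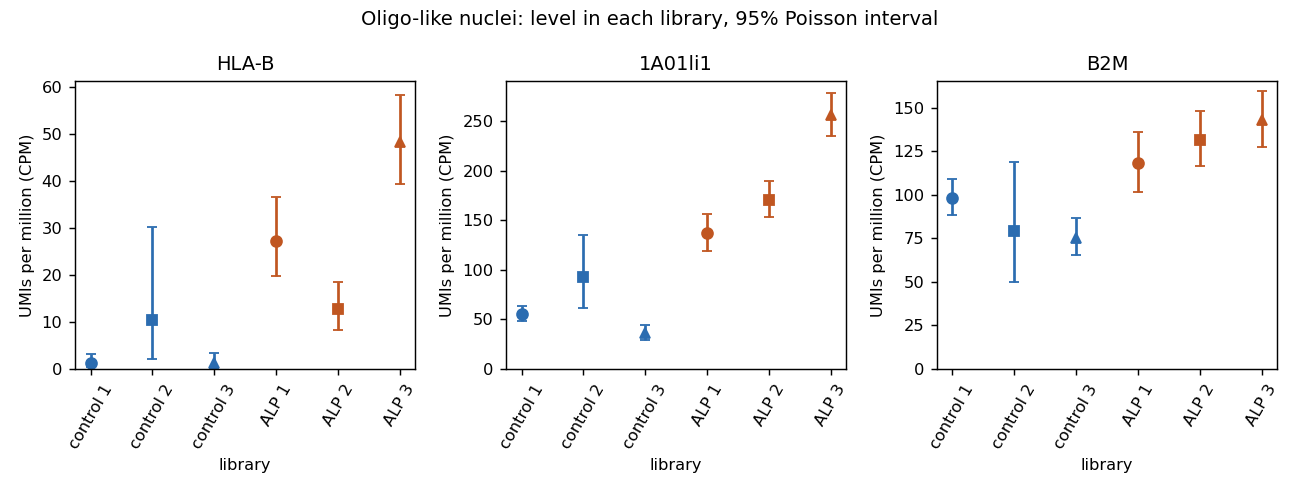
CPM (y) of HLA-B, 1A01li1 and B2M in the Oligo-like nuclei of each library (x), with 95% Poisson intervals. The 3 ALP points lie above the 3 control points in each panel, and the interval of HLA-B in control 2, from 3 UMIs, spans the values of ALP 1 and ALP 2.

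1A01li1 had 55.7, 93.0 and 36.2 CPM in the Oligo-like nuclei of control 1, 2 and 3, and 137, 171 and 256 in those of ALP 1, 2 and 3. The groups did not overlap, with means of 61.6 ± 28.8 and 188 ± 61.3 CPM (SD, n = 3) and a ratio of 3.04. B2M was not picked by the difference of HLA-B, but all members were chosen with earlier results of these data known. It had 98.4, 79.2 and 75.5 CPM in control 1, 2 and 3 and 118, 132 and 143 in ALP 1, 2 and 3. Its ALP values lay above all control values, and edgeR's quasi-likelihood test gave a log2 fold change of 0.71 ± 0.18 (SE) with a Benjamini-Hochberg adjusted p of 0.0495, just past the threshold. The call was kept in 1 of 13 alternatives, that without control 2, and in the others the adjusted p was 0.0502 to 0.241 with the same direction. CD74 had 7.03, 13.8 and 9.25 CPM in control against 8.22, 8.78 and 11.9 in ALP, with overlapping groups and a log2 fold change of 0.25 ± 0.38 (edgeR, adjusted p = 0.746). PSMB8 had 0 to 2.43 CPM in control and 0.976 to 1.90 in ALP, and PSMB9 0 to 1.16 and 0 to 1.46, from at most 9 UMIs per library, and neither was tested there.

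Of the members with a test in Oligo-like nuclei, 1 of 2 was called higher in ALP, where called means an adjusted p under 0.05 and a log2 fold change beyond 0.25. Among all 11726 genes tested there, 5.09% were called in either direction and 2.03% higher in ALP. In 3 of the 4 members that passed the filter on low counts, all ALP values lay above all control values, as for 9.53% of all genes. HLA-B passed that filter only through its ALP libraries and the rule used this contrast, so nothing is read from that count.

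Markers of endothelium, microglia, macrophages and lymphocytes overlapped between the groups in the Oligo-like nuclei. The summed level of 6 endothelial markers was 53.6 to 89.5 CPM in control and 61.0 to 87.3 in ALP, and that of 7 microglial markers 18.7 to 27.0 and 16.6 to 18.8. Markers of T and B cells, with 5 of 11 at 0, among them CD3D and CD3E, were at 18.5 to 31.0 and 23.9 to 31.0 CPM. Macrophage markers, with CD163 at 0 here and in all barcodes, were at 20.5 to 37.9 and 32.2 to 34.8, and the red cell gene ALAS2 at 0 to 2.31 and 0 to 1.26. Markers of OPC and InN were lower in all ALP libraries, at 616 to 827 against 897 to 1304 CPM and at 75.3 to 95.6 against 96.4 to 126. Depth was lower as well, with a median of 1171 to 1321.5 UMIs per Oligo-like nucleus in ALP and 1414 to 1647 in control. The part of these in the result was not tested. Of the 178 Oligo-like nuclei with an HLA-B UMI, 17 had a UMI of an endothelial or microglial marker, against 967 of all 8632 Oligo-like nuclei. Without the nuclei holding such a marker UMI the mean difference of HLA-B was 25.0 CPM, while the groups then overlapped, with 12.6 CPM in control 2 and 12.5 in ALP 2.

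The groups also filled the Oligo-like clusters unequally. Cluster 5 held 167 control and 1427 ALP nuclei, and cluster 2 held 1306 and 849. HLA-B, pooled over the libraries of a group, had 1.72 CPM in control and 24.1 in ALP in cluster 2, and 3.99 and 39.3 in cluster 5. The control values rest on 3 UMIs in cluster 2 and 1 UMI in cluster 5. By library the groups overlapped in cluster 5, where control 2 had 29.8 CPM, above ALP 1 (28.5) and ALP 2 (16.0). These are the nuclei and the contrast for which HLA-B was chosen, so the values only describe where its UMIs lay.

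In the other classes HLA-B overlapped between the groups. The unnamed low-depth nuclei had 1.91, 13.2 and 2.31 CPM in control 1, 2 and 3 and 26.9, 11.9 and 40.1 in ALP 1, 2 and 3, where control 2 lay above ALP 2, and their B2M did not overlap (129 to 181 against 237 to 291 CPM, not tested). In Astro-like nuclei it had 4.05, 6.66 and 3.12 CPM in control 1, 2 and 3 from 5 UMIs each, and 29.96, 5.71 and 17.6 in ALP 1, 2 and 3. ALP 2 lay among the controls, as it did in Endo-like nuclei, where control 2 exceeded ALP 2. In the 1571 Astro-like nuclei without a UMI of an endothelial or microglial marker, a step that mostly removed nuclei with LRMDA, the groups did not overlap. From few UMIs, HLA-B had 0, 3.47 and 3.27 CPM there in control (0, 1 and 2 UMIs). In ALP it had 31.4, 9.17 and 13.8 CPM (9, 6 and 7 UMIs). In Micro-like nuclei 2 control libraries had 0 UMIs and control 3 had 23.0 CPM, against 46.6, 13.4 and 25.1 in ALP. 1A01li1 did not overlap between the groups in Astro-like nuclei (71.3, 59.9 and 39.9 CPM against 144, 126 and 192), in OPC-like nuclei (39.1, 27.5 and 24.5 against 74.2, 64.8 and 77.2) and in Endo-like nuclei. In the neuronal classes it overlapped. These values rest on few nuclei, 27 Endo-like nuclei in ALP 1 and 35 Micro-like nuclei in control 2 being the fewest. All ALP values lay above all control values for 8.07% of all genes in OPC-like, 6.8% in Astro-like and 4.5% in Endo-like nuclei.

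The 9349 nuclei above the limit on genes, of which 4552 were unnamed, 2094 Pyra-like and 2078 InN-like, were not part of these comparisons. HLA-B there had 1.10, 1.41 and 0.934 CPM in control 1, 2 and 3, and 3.81, 0.539 and 7.30 in ALP 1, 2 and 3. ALP 2 was the lowest of all 6 libraries, so the groups overlapped. The mean difference of 2.73 CPM ranged from 1.02 without ALP 3 to 4.40 without ALP 2. 1A01li1 in the same nuclei was at 12.5 to 49.6 CPM in control and 13.5 to 33.8 in ALP.

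How HLA-B and 1A01li1 shared their UMIs differed between libraries of 1 group. Over all kept nuclei HLA-B took 2.61% of the UMIs of this pair in control 1, 11.7% in control 2 and 5.58% in control 3, and 15.3%, 6.56% and 14.6% in ALP 1, 2 and 3. The exact (Clopper-Pearson) 95% intervals of control 2 (8.29% to 15.9%) and ALP 2 (5.17% to 8.19%) do not meet. They cover counting error only and compare those libraries, not the groups. The share in Oligo-like nuclei was 2.37%, 10.0% and 3.09% in control and 16.6%, 6.91% and 15.9% in ALP, and in Endo-like nuclei 2.77%, 11.9% and 5.07% in control and 18.4%, 6.64% and 19.7% in ALP. Each library's interval in Oligo-like nuclei held its share in Endo-like nuclei, except in ALP 3, where 19.7% lies above the bound of 18.9%. In Astro-like nuclei ALP 3 had 8.42%, below its share in both.

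**Figure D3:**
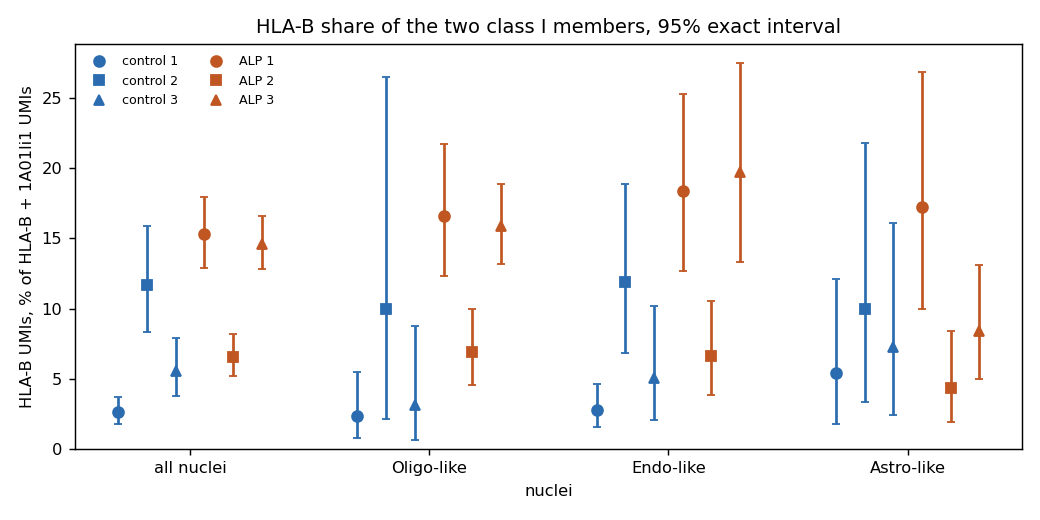
HLA-B UMIs as a percentage of the UMIs of HLA-B and 1A01li1 together (y) in all kept nuclei and in the Oligo-like, Endo-like and Astro-like classes (x), 1 point per library with its exact 95% interval. Control 2 lies above ALP 2 in each of the 4 groups of nuclei, and ALP 1 is high in all 4.

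HLA-B and 1A01li1 are 2 of 32 class I-named features, of which 17 had UMIs. Where such features share sequence, reads can be given to one copy or another, or dropped. Sequences were not compared here, so each single feature of the family is uncertain. The class I UMIs fell mainly on PATR-Gli1 (32.9% to 49.3% per library) and 1A01li1 (30.1% to 48.8%), while HLA-B took 0.841% in control 1 and 7.07% in ALP 3. Some features were nearly private to single libraries. PATR-Ali6 had 39 of its 41 UMIs in control 1, 1A01li6 had 172 of 250 there and 0 in control 3, and 1A01liN had 42 of 59 in control 1. 1B02li1 had 57, 25, 32, 111 and 37 UMIs in control 1, control 2 and ALP 1 to 3, and 0 in control 3. HLA-E, a class I gene of the non-classical kind, had 182 UMIs in control 1 and 20 to 48 in each other library.

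**Figure D4:**
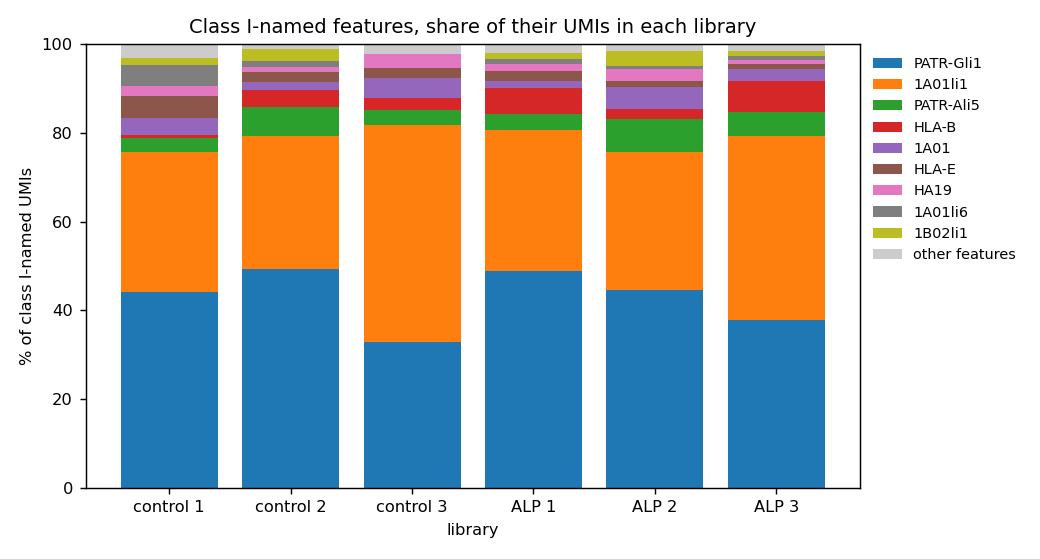
Share of class I-named UMIs in kept nuclei (y, percent) that each feature took in each library (x), with features of few UMIs joined as other features. PATR-Gli1 and 1A01li1 take most UMIs in each library, HLA-B ranges from 0.841% to 7.07%, and 1A01li6 is seen mainly in control 1.

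Summed over all class I-named features, where reads placed on a different copy still count, Oligo-like nuclei had 194, 224 and 67.1 CPM in control 1, 2 and 3 and 301, 373 and 447 in ALP 1, 2 and 3. The groups did not overlap, and the ratio of the means was 2.31. Leaving out HLA-B and 1A01li1, the ratio was 1.64 and the groups still did not overlap. The values were 136.8, 121 and 29.7 CPM in control 1, 2 and 3 and 137.2, 190 and 143 in ALP 1, 2 and 3, where control 1 and ALP 1 nearly met. Control 3 was far the lowest. Over all kept nuclei PATR-Gli1, the class I-named feature with the most UMIs, had 30.3 CPM in control 3 and 102 to 123 in the other libraries. Leaving out PATR-Gli1 alone, the ratio in Oligo-like nuclei was 2.80 and the groups did not overlap. No sum was formed without PATR-Gli1, HLA-B and 1A01li1 together. The part of PATR-Gli1 in the ratio of 1.64 and in the non-overlap beside it was thus not tested. In Astro-like nuclei the class I sum was 220, 160 and 67.3 against 294, 289 and 342 CPM (ratio 2.07), and in Endo-like nuclei 1543, 2206 and 962 against 4018, 3312 and 2293 (ratio 2.04). Without HLA-B the Endo-like sums overlapped (1999.5 CPM in control 2, 1909 in ALP 3), and without both features the Astro-like sums did. In the neuronal classes and in Micro-like and OPC-like nuclei the full sums overlapped. Against Oligo-like and Astro-like nuclei, the low neuronal levels of 1A01li1 were not seen in the full sum of control. Its control means were 126 CPM (Gran-like), 139 (Pyra-like) and 153 (InN-like), against 162 (Oligo-like) and 149 (Astro-like). In ALP the neuronal means, 172 to 199 CPM, lay below both (374 and 308). Without both features the control means were 108, 124 and 133 CPM in the same order, against 95.7 and 87.3. These control means differed by less than their SDs. Without PATR-Gli1 alone the neuronal control means were again lower, at 42.2 CPM (Gran-like), 38.6 (Pyra-like) and 56.5 (InN-like). Oligo-like and Astro-like nuclei then had 96.96 and 93.8 CPM. The gap to both exceeded the larger SD for Gran-like and Pyra-like nuclei, but not for InN-like nuclei. That sum still holds 1A01li1, so it cannot show whether the remaining features were low in neurons. Sums with HLA-B or 1A01li1 hold members chosen for their difference, and no sum was tested.

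Among single family features outside the set, PATR-Ali5 was called in Oligo-like nuclei, with 6.22, 17.2 and 2.698 CPM in control 1, 2 and 3 and 20.2, 46.8 and 29.8 in ALP 1, 2 and 3. The groups did not overlap and edgeR gave a log2 fold change of 2.62 ± 0.49 (adjusted p = 0.0178). That call was lost without control 1, control 3, ALP 1 or ALP 3. PATR-Gli1, the class I-named feature with the most UMIs, had a log2 fold change of 0.81 ± 0.41 there (edgeR, adjusted p = 0.281) and was not called. Of 5 family features tested in Oligo-like nuclei 1 was called, of 4 in Astro-like nuclei 1 and of 11 in Micro-like nuclei 3, all higher in ALP, against 2.03%, 0.0985% and 0.499% of all genes called higher in these classes. None of these called features reached the level of the filter on low counts in all 3 control libraries. HLA-DMA in Micro-like and MAMU-DRA in Astro-like nuclei reached it in none. The called features needed their ALP libraries to be tested, so nothing is read from these counts.

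The Micro-like nuclei of ALP TSs had higher means of CD74, on the class II side, and of B2M, on the class I side, but neither passed the test. For CD74 the ALP libraries lay above the controls, ALP 2 with 231 CPM just over control 3 with 228, and edgeR gave a log2 fold change of 1.09 ± 0.32 (adjusted p = 0.132). Over its alternatives the adjusted p ran from 0.0383 without ALP 2 to 0.505 without ALP 3, where the log2 fold change was 0.77. It was 0.459 without control 1, 0.0496 without the upper limit on genes, and 0.0464 with the replicate number as a block. B2M had 286, 350 and 187 CPM in control and 466, 386 and 587 in ALP, with a log2 fold change of 0.91 ± 0.26 (edgeR, adjusted p = 0.121). Its adjusted p ran from 0.0426 without the upper limit on genes to 0.488 without control 3 (edgeR), and was just past the threshold without control 2. Of all 5014 genes tested in Micro-like nuclei 0.798% were called, and 8.14% had all ALP values above all controls, as both of these members did.

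Of the class II-named features 3 were called in the Micro-like nuclei, where 0.499% of all genes were called higher in ALP. None of the 3 passed the filter on low counts by its control libraries alone, so nothing is read from that count. HLA-DMA, a chain of the molecule that exchanges peptides on class II, had 22.0, 33.4 and 25.9 CPM in control 1, 2 and 3 and 93.3, 75.1 and 121 in ALP 1, 2 and 3, and rose by a log2 fold change of 1.97 ± 0.39 (edgeR, adjusted p = 0.0197). MAMU-DRA, named for the class II DR alpha chain, had 37.7, 16.7 and 54.7 CPM in control and 105, 118 and 151 in ALP, with a log2 fold change of 1.58 ± 0.33 (edgeR, adjusted p = 0.02998). Both were higher in each ALP library than in each control. HLA-DQA2 had 9.42, 66.7 and 5.76 CPM in control and 52.5, 85.9 and 70.3 in ALP, with a log2 fold change of 2.55 ± 0.57 (edgeR, adjusted p = 0.0430), although control 2 (4 UMIs) lay above ALP 1. None of these 3 calls was made without control 1, ALP 1 or ALP 3. HLA-DMA and HLA-DQA2 were also lost without control 3, and HLA-DQA2 and MAMU-DRA without ALP 2 or the marked doublets. HLA-DMA and MAMU-DRA were lost at clustering resolution 1, and HLA-DQA2 with the replicate number as a block. DESeq2 gave MAMU-DRA an adjusted p of 0.0797 and gave none for the other two. HLA-DRB5 did not follow, with a log2 fold change of 0.02 ± 0.37 (edgeR, adjusted p = 0.999). The Micro-like nuclei of ALP libraries also had more of the 7 microglial markers, 4476 to 4941 CPM against 2819 to 4431, and less of the oligodendrocyte markers, 1497 to 1556 against 1766 to 1985. Their T and B cell markers, with 3 of 11 at 0, overlapped between the groups, at 317 to 571 CPM against 239 to 350. The gene of that list with most UMIs was itself among the top genes of the Micro-like cluster, so this sum is not particular to lymphocytes. Their median depth was 803 to 973 UMIs in ALP and 1072 to 1327 in control. Their Ependymal markers were at 75.3 to 99.3 CPM against 0 to 63.4. The part of these in the results was not tested.

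**Figure D5:**
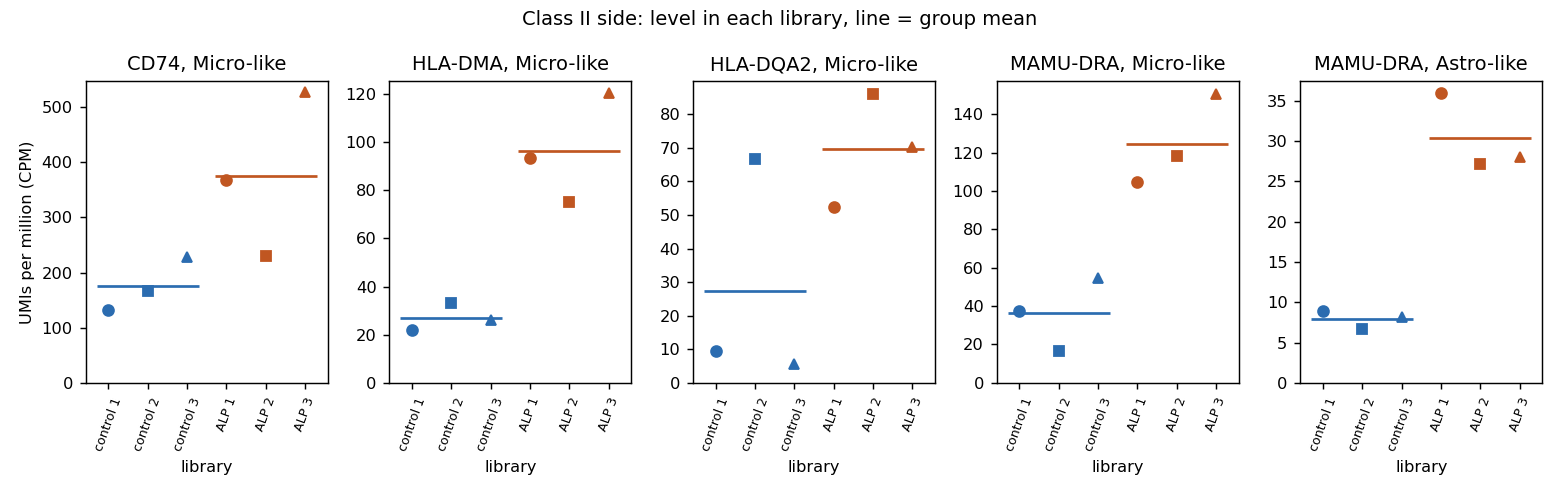
CPM (y) in each library (x) of CD74, HLA-DMA, HLA-DQA2 and MAMU-DRA in Micro-like nuclei and of MAMU-DRA in Astro-like nuclei, with lines at the group means. The ALP points lie above the control points in each panel but that of HLA-DQA2, where control 2 exceeds ALP 1.

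MAMU-DRA was also called in Astro-like nuclei, where 0.217% of 10155 genes were called and 0.0985% higher in ALP. It passed the filter on low counts there only through its ALP libraries, so nothing is read from these shares. It had 8.91, 6.66 and 8.10 CPM in control 1, 2 and 3 and 36.0, 27.1 and 28.0 in ALP 1, 2 and 3, a log2 fold change of 2.01 ± 0.33 (edgeR, adjusted p = 0.0393). The 17 class II-named features together had 33.2, 37.3 and 42.4 CPM in control and 112, 127 and 126 in ALP, with no overlap and a ratio of 3.23. That sum also did not overlap in Micro-like (ratio 2.09), Gran-like (1.68), Oligo-like (1.63) and OPC-like nuclei (1.47). In OPC-like nuclei control 3 and ALP 3 nearly met, at 29.5 and 29.7 CPM. Control 2 held 3 UMIs of the sum in Gran-like and 5 in Oligo-like nuclei. In Endo-like, Pyra-like and InN-like nuclei the sum overlapped, and no sum was tested. How often sums of other features separate in this way was not measured, so nothing is read from the number of classes. The microglial markers in Astro-like nuclei overlapped between the groups, at 356 to 424 against 396 to 450 CPM. Of their UMIs 2481 came from LRMDA, found in 1445 of 3236 Astro-like nuclei. Ependymal markers (393 to 637 against 301 to 390 CPM) and the astrocyte markers themselves (5219 to 5573 against 4292 to 5070) were higher in each ALP library. Endothelial markers (22.8 to 38.5 against 50.6 to 64.0), InN markers (66.4 to 104 against 111 to 137) and median depth (1552 to 1744 against 1998 to 2260 UMIs) were lower. Their part in the result was not tested. In the 1571 Astro-like nuclei without an endothelial or microglial marker UMI, MAMU-DRA had 5.39, 6.93 and 9.80 CPM in control against 27.9, 21.4 and 27.5 in ALP. The call of MAMU-DRA was lost without control 1, control 3, ALP 1 or ALP 3, and with the replicate number as a block. For CD74 and B2M the nuclei without marker UMIs gave ratios of the means of 0.917 and 0.992. In all Astro-like nuclei CD74 had 12.2, 14.6 and 19.3 CPM against 22.0, 27.8 and 22.8 and B2M 129, 124 and 83.5 against 152, 135 and 140, with log2 fold changes of 0.78 ± 0.32 and 0.49 ± 0.20 (edgeR, adjusted p = 0.241 and 0.249).

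In Endo-like nuclei 0% of 1510 genes were called by edgeR, while 90 had an unadjusted p under 0.05 and DESeq2 called 1, so a call of a member could hardly be seen there. PSMB8 had 77.0, 55.2 and 49.4 CPM in control 1, 2 and 3 and 228, 166 and 133 in ALP 1, 2 and 3. The groups did not overlap, but from 4 to 31 UMIs per library the log2 fold change of 1.37 ± 0.47 had an adjusted p of 0.794 (edgeR). PSMB8 passed the filter on low counts there only through its ALP libraries, so nothing is read from this test. PSMB9 had 67.1, 124 and 55.5 CPM against 160, 177 and 88.8, and overlapped, with a log2 fold change of 0.92 ± 0.52 (edgeR, adjusted p = 0.925). B2M overlapped too, with a log2 fold change of 0.76 ± 0.39 (edgeR, adjusted p = 0.875). CD74 was too sparse to be tested, with 24.8, 13.8 and 12.3 CPM against 114, 77.3 and 59.2 from 1 to 10 UMIs per library. The controls held 365 Endo-like nuclei and the ALP libraries 129.

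PSMB8 in Astro-like nuclei had 3.24, 3.995 and 4.99 CPM in control 1, 2 and 3 and 1.997, 2.85 and 2.07 in ALP 1, 2 and 3. From 1 to 8 UMIs per library, all ALP values lay below all controls, as for 15.2% of all genes there, and it was too sparse to be tested.

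In neurons the mean of B2M was lower in ALP, though no call was made. InN-like nuclei had 35.4, 11.3 and 29.4 CPM in control 1, 2 and 3 and 10.6, 17.0 and 9.46 in ALP 1, 2 and 3, with a log2 fold change of -0.88 ± 0.38 (edgeR, adjusted p = 0.242). Pyra-like nuclei had 31.2, 17.3 and 32.8 CPM against 12.04, 17.4 and 13.2, with a log2 fold change of -0.73 ± 0.30 (edgeR, adjusted p = 0.251). Control 2 lay within or near the ALP values in both. In Pyra-like nuclei of ALP the markers of endothelium (45.5 to 52.0 against 67.5 to 95.7 CPM), microglia (14.9 to 22.4 against 28.6 to 66.95) and ependyma (64.3 to 92.4 against 101 to 133) were lower in each library. In InN-like nuclei those of ependyma (61.4 to 69.0 against 91.5 to 114), mural cells (2.01 to 3.78 against 4.64 to 8.37) and Pyra (48.0 to 62.4 against 67.0 to 84.3) were. The part of these in the values of B2M was not tested. Over all kept nuclei B2M was lower in each ALP library, with 144, 150 and 118 CPM in control and 106, 117 and 108 in ALP, as for 22.4% of all genes, with a log2 fold change of -0.10 ± 0.15 (edgeR, adjusted p = 0.726). That sum mixes classes whose shares differ between libraries.

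Across all classes and the sum of all nuclei, the 4 members with a test gave 17 tests, of which 1 was called and 8 had an unadjusted p under 0.05. Of these 8, 6 were higher in ALP, and B2M in Pyra-like and InN-like nuclei was lower. PSMB8 in Endo-like nuclei, 1 of the 6, passed the filter on low counts only through its ALP libraries, so nothing is read from these counts. Among all genes an unadjusted p under 0.05 was found for 2526 of 11726 in Oligo-like, 1730 of 10155 in Astro-like, 596 of 5014 in Micro-like, 90 of 1510 in Endo-like, 2288 of 13322 in Pyra-like and 2344 of 11949 in InN-like nuclei. PSMB8 and PSMB9 were tested in Endo-like nuclei and over all nuclei, where their log2 fold changes were 0.07 ± 0.34 and 0.00 ± 0.45 (edgeR, adjusted p = 0.919 and 0.998).

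Pathway genes around the members were taken from fixed lists, which were chosen with earlier results of these data known. Of 13 genes of class I loading and its control, 8 were tested in Oligo-like nuclei and 2 rose, with none lower, where 2.03% of all genes were called higher. CALR, which holds newly made class I chains, had 46.0, 44.8 and 35.8 CPM in control 1, 2 and 3 and 107, 93.7 and 92.7 in ALP 1, 2 and 3, a log2 fold change of 1.32 ± 0.20 (edgeR, adjusted p = 0.0130). HSPA5, a general chaperone of the endoplasmic reticulum, had 30.01, 27.5 and 22.7 CPM against 44.9, 53.2 and 49.6, a log2 fold change of 0.98 ± 0.22 (edgeR, adjusted p = 0.0326). Both serve many proteins besides class I. Neither was called without control 3, ALP 1 or ALP 3, and DESeq2 did not call HSPA5 (adjusted p = 0.0532). HSPA5 was also not called with the replicate number as a block. PDIA3, the oxidoreductase that works with CALR, had a log2 fold change of 0.46 ± 0.19 (edgeR, adjusted p = 0.182) and did not pass. The median log2 fold change of the 8 genes was 0.46, against 0.00 over all genes tested. CALR in OPC-like and InN-like nuclei had log2 fold changes of 0.78 ± 0.24 and 0.97 ± 0.26 (edgeR, adjusted p = 0.127 and 0.0819).

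Of 9 further proteasome genes, 2 were tested in Oligo-like nuclei and neither passed. POMP, an assembly factor, had a log2 fold change of -0.24 ± 0.21 and PSMB6, a constitutive subunit that PSMB9 replaces, 0.54 ± 0.23 (edgeR, adjusted p = 0.552 and 0.210). PSME3 passed the filter only over all nuclei (log2 fold change -0.43 ± 0.43, edgeR, adjusted p = 0.585). Of 17 genes of the class II path, 2 were tested in Oligo-like and 7 in Micro-like nuclei, and 1 rose in each, against 2.03% and 0.499% of all genes called higher. LGMN, an endosomal protease, had 92.2, 121 and 89.0 CPM in the Oligo-like nuclei of control 1, 2 and 3 and 164, 159 and 163 in those of ALP 1, 2 and 3, a log2 fold change of 0.83 ± 0.19 (edgeR, adjusted p = 0.0314), and was not called without control 1, control 3, ALP 1 or ALP 3. The LGMN call was also lost with the replicate number as a block. In Micro-like nuclei LGMN had a log2 fold change of 1.08 ± 0.27 (edgeR, adjusted p = 0.0646), the costimulatory CD86 0.59 ± 0.24 (edgeR, adjusted p = 0.336), and the call there was HLA-DMA. The median of the 7 was 1.08 against 0.01 over all genes. HLA-DMA counts both here and among the family features. It passed the filter on low counts only through its ALP libraries, so nothing is read from its count in this list or from the median of the 7.

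Of 37 interferon genes, 29 were in the feature list and 10 were tested in Oligo-like nuclei, where 1 rose, against 2.03% of all genes. IFIH1, a sensor of double-stranded RNA, had 6.22, 6.89 and 10.4 CPM in control 1, 2 and 3 and 20.2, 17.1 and 19.3 in ALP 1, 2 and 3, a log2 fold change of 1.32 ± 0.33 (edgeR, adjusted p = 0.0433). That call was lost in 7 of 13 alternatives, among them DESeq2 (adjusted p = 0.103), the fit without the upper limit on genes (edgeR, adjusted p = 0.0601) and that without control 1 (edgeR, adjusted p = 0.146). IFI6 had a log2 fold change of 0.68 ± 0.33 (edgeR, adjusted p = 0.265) and JAK2, a kinase of cytokine receptors, 0.04 ± 0.20 (edgeR, adjusted p = 0.946). The median of the 10 was 0.05, close to that of all genes. In Micro-like nuclei 0 of 11 interferon genes were called by edgeR, and 0 of 12 were in Astro-like nuclei. No list gene was called in OPC-like nuclei, where 1.61% of all genes were, in Gran-like nuclei (1.64%), or in Astro-like or Endo-like nuclei. In Pyra-like nuclei, InN-like nuclei and all nuclei together edgeR called 0% of all genes, while 2288, 2344 and 5323 had an unadjusted p under 0.05 and DESeq2 called 317, 465 and 1740. With DESeq2 CALR was called in InN-like nuclei and LGMN and PARP14 over all nuclei. Without control 3, ALP 1 or ALP 3, 0 list genes were called in any class, against 5 with all libraries. In the same fits 1, 1 and 2 of all genes were called in Oligo-like nuclei, against 597 with all libraries, so nothing about the lists is read from it.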

How the data were processed

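Single-nucleus RNA of the hippocampus was measured in 3 control and 3 ALP TSs. The authors deposited raw counts (UMIs per feature and barcode) as written by Cell Ranger (version 3.1.0 per the processing notes, 6.1.2 per the file headers) on TreeshrewDB features. The build and the use of strand are not given in the sources used here. Nuclei with more than 200 and fewer than 2500 genes and under 5% mitochondrial UMIs were kept. They were clustered with scanpy 1.11.5 and leidenalg 0.10.2 (2000 variable genes without MHC family features, 30 components, 20 neighbours, resolution 2) and named from at least 3 markers. Clusters with 15% or more marked doublets stayed unnamed, and other marked doublets were kept. Sums of UMIs for each class and library went into the quasi-likelihood test of edgeR 4.0.16 (R 4.3.3, TMM, minimum count 10), so that fold changes carry TMM factors, which the CPM printed do not. DESeq2 1.42.0, other normalization, filters, clusterings, a replicate block and leaving out libraries were alternatives. In alternatives that leave out a library the fit pools the spread. The edgeR step was tested on simulated data.

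Members and lists were chosen with earlier results of these data known. Named genes were the members, the MHC family features, list genes that were called or among the 3 with most UMIs of their list, and the 5 genes most like HLA-B, B2M and CD74 (mean CPM of at least 10). PARP14, CD3D, CD3E, CD163, ALAS2 and LRMDA were named after their values were seen. A list gene that this rule names is not reported here. Sequences were not used here.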

Additional observations from a re-analysis of the deposited data

Results flagged for a closer look

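PSMB8 had opposite differences in a pair of classes and passed no test in either, with an adjusted p of 0.794 in Endo-like nuclei (edgeR) and too few UMIs for a test in Astro-like nuclei. In Endo-like nuclei each ALP library was above each control, with a ratio of the mean CPM of 2.90. In Astro-like nuclei each ALP library was below each control, with a ratio of 0.567 from 15 control and 7 ALP UMIs (1.997 to 2.85 against 3.24 to 4.99 CPM). The difference between the classes was not tested, and among all genes 4.5% had each ALP value above each control in Endo-like nuclei and 15.2% each below in Astro-like nuclei. PSMB8 passed the filter on low counts in Endo-like nuclei only through its ALP libraries, so nothing is read against the 4.5%.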

How the results depend on the processing

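Calls were few and most depended on single libraries. With the analysis as reported 1 test of a member was called (B2M in Oligo-like nuclei). That count was 0 with RLE size factors, DESeq2, no filter on low counts, marked doublets removed or resolution 1, 2 without the upper limit on genes (B2M and CD74 in Micro-like nuclei), and 0 to 2 when 1 library was left out. List genes gave 5 calls, 20 with no filter on low counts, and 0 to 9 when 1 library was left out (0 without control 3, ALP 1 or ALP 3). Other family features gave 5 calls, 8 with DESeq2, 30 with no filter, 3 with marked doublets removed or resolution 1, and 0 to 14 when 1 library was left out (most without control 2, the smallest library, and 0 without ALP 1 or ALP 3). The cause was not tested. The family counts and those for HLA-B between groups were added after seeing the data. Replicate numbers did not pair the samples, since same-numbered libraries had correlations of -0.0972, -0.0565 and -0.0849 of their deviations. With the replicate block the members gave 1 call, CD74 in Micro-like nuclei in place of B2M, the lists 2 and the family features 3. The called genes named in the text, with B2M and CD74 in Micro-like nuclei, kept their direction in each alternative that gave a value. DESeq2 gave no adjusted p for HLA-DMA and HLA-DQA2 in Micro-like nuclei. In Astro-like nuclei without endothelial or microglial marker UMIs, the ratios of CD74 and B2M turned from 1.57 and 1.27 to 0.917 and 0.992. That step left out 1665 of 3236 nuclei, 1445 of them with a UMI of LRMDA, so it mostly selects on that 1 marker. What the change in the ratios came from was not tested. The mean levels in Endo-like and Micro-like nuclei, the shares with a UMI after thinning, and the group differences of HLA-B in Oligo-like nuclei (15.7 to 33.4 CPM) and above the gene limit (1.02 to 4.40 CPM) stayed within 1 SD. Leaving out 1 library cannot move such a mean by 1 SD, so nothing is read from that part of the check. Above the gene limit there was no other part.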
